A study of Mus musculus with 15 samples.

Results

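Collagens are built from chains, and each chain is the product of a gene of its own. The genes described here are the 44 of 19938 measured mouse genes whose symbol has the form Col, a number, the letter a and a number, taken from the symbols that the array annotation gives to 1 gene only. They were read from 46 transcript clusters (the sets of probes that report 1 transcript region), and the brightest cluster stood for the gene; Col6a5 and Col6a6 had 2 clusters each and the other 42 genes 1. By the kind of collagen they form, 11 were fibrillar, 6 basement membrane, 9 FACIT (collagens that sit on the surface of fibrils) and 18 other chains.

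Whole livers of male C57BL/6J mice were measured on 15 Affymetrix gene arrays in 5 groups of 3. From week 8, after weaning, mice ate an atherogenic and high-fat diet (Ath+HF), the same diet with 3% branched-chain amino acids (leucine, isoleucine and valine; Ath+HF+BCAA), or a basal diet. The groups were Ath+HF+BCAA 68w and Ath+HF 68w, killed at week 68 after 60 weeks on the diet, and Ath+HF+BCAA 38w, Ath+HF 38w and basal diet 38w, killed at week 38 after 30 weeks. RNA came from frozen liver tissue, and the labels do not say whether tumour tissue was taken at 68w or whether each array was a separate mouse, so p-values measure only the spread between arrays. The strain was the same in all groups, no transcript on the arrays checks which diet a mouse ate, and every direction given for BCAA rests on the labels of the arrays. For the scar collagens at 68w, that direction is opposite to the effect on fibrosis named in the title of the series. The only basal diet arrays were from 38w, so in a comparison of a 68w group with them diet, age and any batch cannot be told apart.

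Chains wind together into the triple helix that gives collagens their strength. Fibrillar chains assemble into the fibres of the interstitial matrix and of scar, type IV chains into the sheet of basement membranes, and FACIT chains coat fibrils, while type VI chains form beaded filaments and others are network-forming or cross the cell membrane. In liver, type I and III collagens surround the portal tracts and accumulate as septa in fibrosis, where stellate cells that have become myofibroblasts are the best known producers; liver endothelium, portal fibroblasts and hepatocytes make others.

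Bases before the start are shown for Col6a3, Col1a2 and Col3a1, the chains with the largest BCAA differences at 68w among those with a window, and for the pair Col4a1 and Col4a2, which share a start region. RefSeq start sites on GRCm38.p6 gave 38 windows for 35 of the 44 genes (not for Col1a1, Col2a1, Col4a3, Col5a2, Col9a3, Col12a1, Col14a1, Col22a1 and Col26a1), and the 250 bases before each start were searched on both strands for CCAAT (bound by NFY), TATAAA and GGGCGG (bound by Sp1), which can share only letters at their ends. Capitals mark these motifs in the first 3 sequences, given 5′ to 3′ on the gene's strand: Col1a2 at chr6:4505368-4505617 (plus strand), Col3a1 at chr1:45311288-45311537 (plus strand) and Col6a3 at chr1:90843972-90844221 (minus strand). In the last one, chr8:11312801-11312830 on the plus strand, capitals mark the 22 bases that lie in both the Col4a1 and the Col4a2 transcript.
Col1a2: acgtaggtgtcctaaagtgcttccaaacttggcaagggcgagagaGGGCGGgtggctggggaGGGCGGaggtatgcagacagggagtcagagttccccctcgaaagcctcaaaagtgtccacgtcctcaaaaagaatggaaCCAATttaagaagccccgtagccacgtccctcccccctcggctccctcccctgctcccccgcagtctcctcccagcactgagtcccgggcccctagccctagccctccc
Col3a1: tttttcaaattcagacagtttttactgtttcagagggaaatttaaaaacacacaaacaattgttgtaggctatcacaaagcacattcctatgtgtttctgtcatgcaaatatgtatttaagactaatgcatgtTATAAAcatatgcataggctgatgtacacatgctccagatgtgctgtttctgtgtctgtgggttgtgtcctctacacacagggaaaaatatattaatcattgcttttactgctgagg
Col6a3: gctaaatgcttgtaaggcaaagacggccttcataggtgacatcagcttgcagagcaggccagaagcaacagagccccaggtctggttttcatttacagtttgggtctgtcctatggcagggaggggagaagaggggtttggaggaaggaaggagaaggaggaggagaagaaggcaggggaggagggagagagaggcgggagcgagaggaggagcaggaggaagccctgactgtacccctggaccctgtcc
Col4a1 and Col4a2: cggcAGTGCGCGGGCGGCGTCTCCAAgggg
Col1a2 held CCAAT 109 bases before its start and GGGCGG 205 and 188 bases before it. Col3a1 held TATAAA 117 bases before its start, and the Col6a3 window held none of the 3 motifs. The genes of the basement membrane pair Col4a1 and Col4a2 run in opposite directions from starts 21 bases apart, with CCAAT 145 bases before the start of Col4a1 (on the other strand) and 32 bases before that of Col4a2, counted to the leftmost letter. CCAAT was in 13 of the 38 collagen windows (34.2%), against 33.8% of all 32851 windows in the table. TATAAA was in 5 collagen windows (13.2%), against 12.4% of all windows, and GGGCGG in 22 (57.9%), against 32.7% of all windows. Among the 10 windows of chains called higher in Ath+HF+BCAA 68w than in Ath+HF 68w livers, CCAAT was in 3 (30.0%), TATAAA in 1 (10%) and GGGCGG in 5 (50%).

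Levels are log2 values after the authors' robust multi-array average, so that equal differences are equal folds. Array medians lay between 7.10 and 7.16 in the 68w groups and between 6.91 and 7.04 in the 38w groups, a gap that goes with age and bears on small differences between ages. The 10 hepatocyte markers that checked the labelled tissue were bright on all arrays, with group means of their log2 level between 12.96 and 13.24. Every comparison was tested with limma over all 19938 genes, and a gene was called at a Benjamini-Hochberg adjusted p under 0.05. In whole tissue, fewer cells of a type and less RNA per cell cannot be told apart.

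In the values as deposited, all 44 chains had their highest group mean at 68w, as did 60.4% of all genes. Of the 44, 18 peaked in Ath+HF+BCAA 68w livers (40.9%, against 25.4% of all genes) and 26 in Ath+HF 68w livers (59.1%, against 35.0% of all genes). Every array of the highest group was above all 12 other arrays for 12 of the 18 (27.3% of the 44 chains, against 12.2% of all genes) and for 13 of the 26 (29.5%, against 9.23% of all genes). The lowest group mean fell in basal diet livers for 20 chains (45.5%, against 19.5% of all genes). In Ath+HF+BCAA 38w livers it fell for 15 (34.1%, against 19.7% of all genes). Of the 44 chains, only Col2a1 and Col4a4 were called in none of the 9 comparisons, and the same share over all genes was not counted. The sizes differed, as the map of all chains by array shows. Between the highest and the lowest group mean, Col6a3 spanned 4.44-fold, the widest of the chains that peaked in Ath+HF+BCAA 68w livers. The widest span of a chain that peaked in Ath+HF 68w livers was 1.61-fold. By mean level over all arrays, Col10a1 (6.16) was the 1 chain below the lower quartile of all genes (6.20). Another 17 chains lay between that quartile and the median (7.38), 24 between the median and the upper quartile (8.84), and 2 above it.

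**Figure D1:**
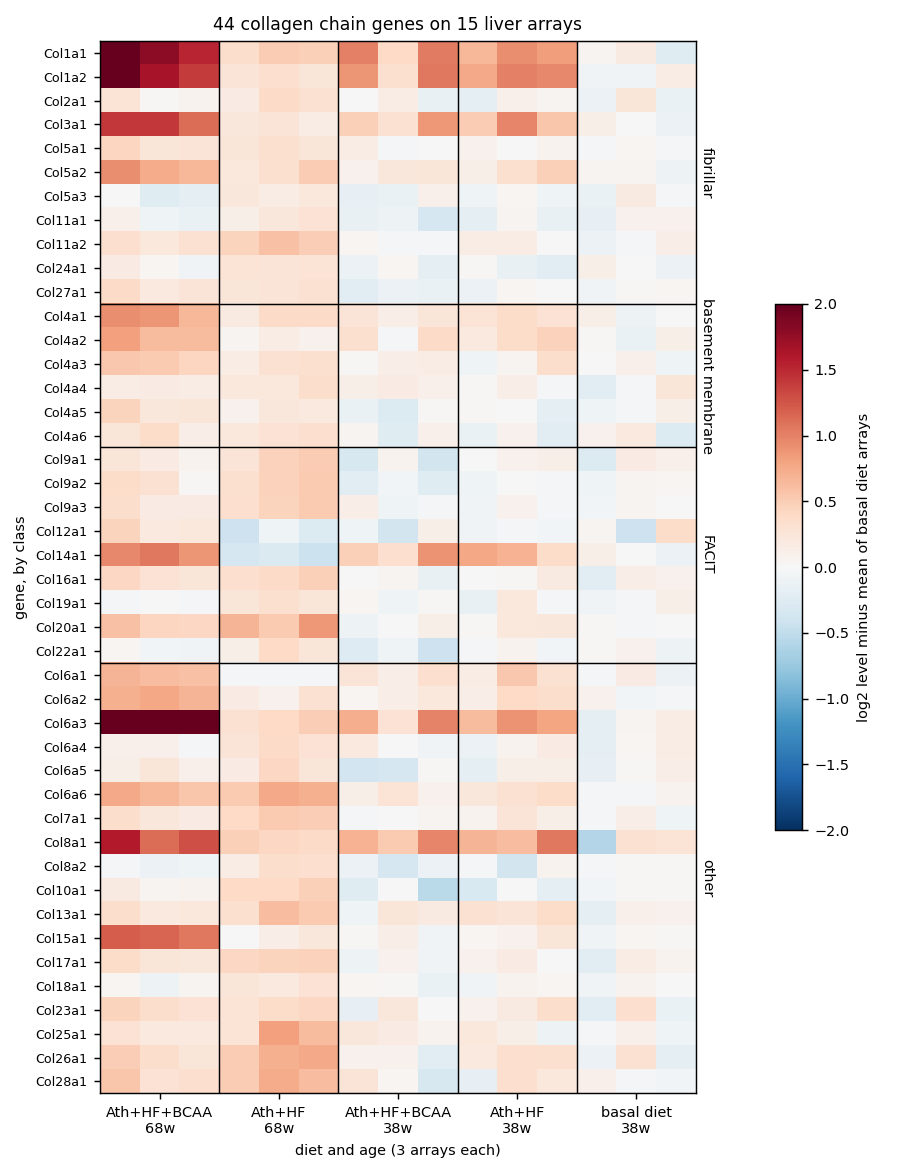
Log2 level of each of the 44 collagen chain genes (rows, by class) on each of the 15 arrays (columns, by diet and age), minus the gene's mean over the 3 basal diet arrays; the colour scale ends at 2. Col1a1, Col1a2, Col3a1, Col6a3, Col8a1, Col14a1 and Col15a1 stand out in Ath+HF+BCAA 68w livers, where Col6a3 averaged 2.15 above basal diet.

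At 68w, 13 of the 44 chains were higher in Ath+HF+BCAA livers than in Ath+HF livers (29.5%, against 19.8% of all genes) and 7 were lower (15.9%, against 16.4% of all genes). The 13 were Col6a3, Col1a2, Col1a1, Col14a1, Col3a1, Col15a1, Col8a1, Col6a1, Col4a2, Col12a1, Col6a2, Col4a1 and Col5a2, with log2 differences of 0.44 to 1.75. The 7 were Col8a2, Col25a1, Col5a3, Col10a1, Col19a1, Col22a1 and Col18a1, with differences of -0.36 to -0.25. The share called higher was close to that of genes of like mean level. Between the lower quartile and the median of mean level it was 3 of 17 chains (17.6%, against 17% of all genes). Between the median and the upper quartile it was 9 of 24 (37.5%, against 33.1%). Called lower there were 3 of the 17 (17.6%, against 11%) and 2 of the 24 (8.33%, against 12.9%). The median difference over the 44 chains was -0.11, beside -0.09 over all genes. Setting all array medians equal gave 13 higher and 4 lower (19.5% and 15.5% of all genes), and quantile normalization 13 higher and 11 lower (19.6% and 14.7% of all genes). The same 13 chains were called higher in all 3, and of the 7 lower ones Col5a3, Col8a2 and Col25a1 were. Markers of macrophages and myofibroblasts were also higher in Ath+HF+BCAA 68w livers (7 of 10 each, against 19.8% of all genes), and 1 macrophage marker was lower. The part of these cell types in the differences was not tested.

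The fibrillar chains of scar collagen led their class. Of its 11 chains 4 were called higher (36.4%, against 19.8% of all genes) and 1 lower (9.09%, against 16.4%). Col1a1 and Col1a2 encode the pair of chains of type I collagen. Col1a1 read 9.99, 9.63 and 9.38 in Ath+HF+BCAA 68w livers, 8.20, 8.35 and 8.33 in Ath+HF 68w livers, 8.85, 8.24 and 8.88 in Ath+HF+BCAA 38w livers, 8.51, 8.78 and 8.68 in Ath+HF 38w livers and 7.90, 8.03 and 7.61 in basal diet livers. All Ath+HF+BCAA 68w arrays were above every other array, and the arrays of Ath+HF 68w lay between those of basal diet and, but for 1 Ath+HF+BCAA 38w array, the 38w Ath+HF arrays. The BCAA difference at 68w was 1.38 ± 0.18 (SE), or 2.60-fold (limma adjusted p = 1.75e-05). Its partner moved with it. Col1a2 read 9.84, 9.42 and 9.16 in Ath+HF+BCAA 68w livers, 8.02, 8.10 and 8.00 in Ath+HF 68w livers, 8.65, 8.09 and 8.83 in Ath+HF+BCAA 38w livers, 8.53, 8.77 and 8.72 in Ath+HF 38w livers and 7.70, 7.70 and 7.91 in basal diet livers. Again no other array reached those of Ath+HF+BCAA 68w, and the difference was 1.43 ± 0.18 (SE), 2.70-fold (adjusted p = 1.11e-05). Averages of Col1a2 were 9.47 ± 0.34 (SD, n = 3) in Ath+HF+BCAA 68w livers and 8.04 ± 0.05 in Ath+HF 68w livers.

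Type III collagen, a homotrimer of Col3a1 that co-assembles with type I, showed the same order of groups as Col1a2. Col3a1 read 9.07, 9.07 and 8.78 in Ath+HF+BCAA 68w livers, 7.89, 7.91 and 7.80 in Ath+HF 68w livers, 8.13, 7.96 and 8.52 in Ath+HF+BCAA 38w livers, 8.17, 8.63 and 8.21 in Ath+HF 38w livers and 7.77, 7.66 and 7.54 in basal diet livers. Its Ath+HF+BCAA 68w arrays stood above all others by at least the gap from 8.63, the highest 38w array, to 8.78. The 68w BCAA difference was 1.11 ± 0.15 (SE), 2.16-fold (adjusted p = 2.54e-05). Type V collagen starts fibrils, and its chains did not share a direction. Col5a2 read 7.80, 7.62 and 7.55 in Ath+HF+BCAA 68w livers, 7.09, 7.20 and 7.38 in Ath+HF 68w livers, 6.97, 7.10 and 7.12 in Ath+HF+BCAA 38w livers, 6.99, 7.19 and 7.36 in Ath+HF 38w livers and 6.93, 6.93 and 6.77 in basal diet livers. All Ath+HF+BCAA 68w arrays were above every other array, with a difference from Ath+HF 68w of 0.44 ± 0.11 (SE, adjusted p = 0.00753). Col5a3 read 7.63, 7.41 and 7.47 in Ath+HF+BCAA 68w livers, 7.87, 7.80 and 7.85 in Ath+HF 68w livers, 7.48, 7.51 and 7.75 in Ath+HF+BCAA 38w livers, 7.56, 7.68 and 7.57 in Ath+HF 38w livers and 7.52, 7.82 and 7.60 in basal diet livers. Here the Ath+HF+BCAA 68w arrays were all below those of Ath+HF 68w but overlapped the 3 groups of 38w, and the difference was -0.34 ± 0.10 (SE, adjusted p = 0.0200). That call was lost without Ath+HF 68w replicate 1 or 3 (adjusted p = 0.0550 and 0.0522) and without Ath+HF+BCAA 68w replicate 2 or 3 (0.0875 and 0.0596). Col5a1 was not called (0.04 ± 0.09, SE).

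**Figure D2:**
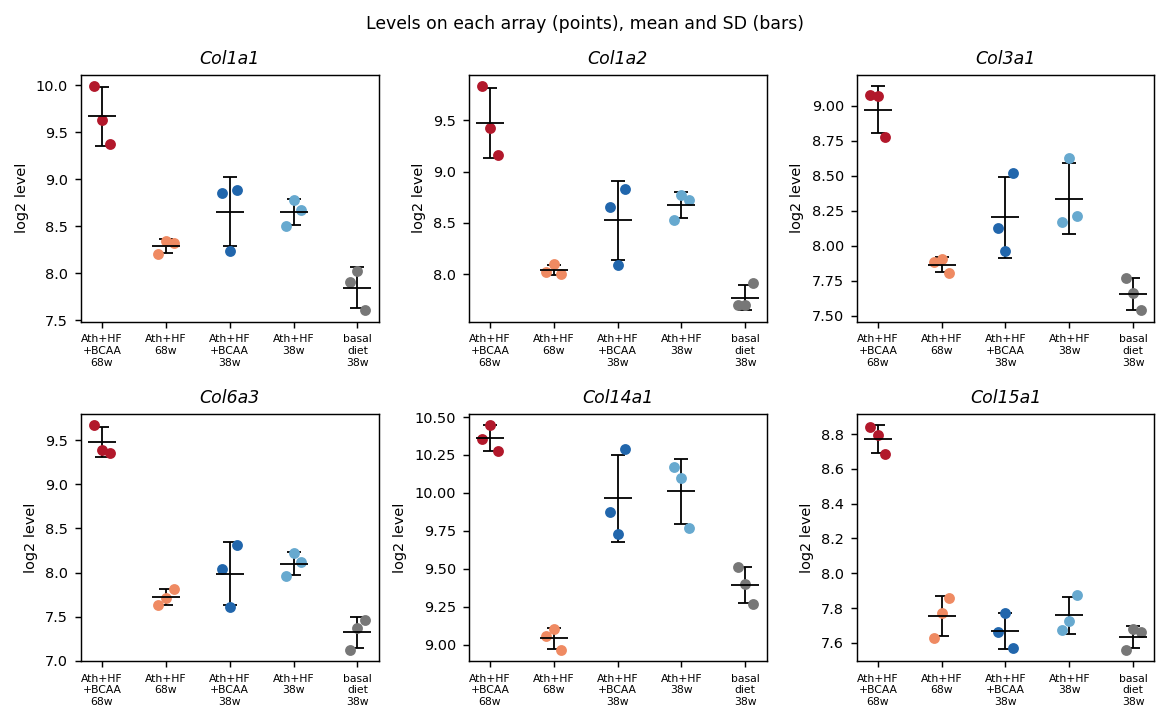
Log2 level of 6 chains on each array (points, 3 per group), with the group mean and SD (bars), by diet and age; each panel has its own axis. In all but Col14a1, where 1 array of Ath+HF+BCAA 38w read 10.29, every Ath+HF+BCAA 68w array lies above every other array.

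Of the 6 basement membrane chains, the ubiquitous pair Col4a1 and Col4a2 was called higher (33.3%, against 19.8% of all genes) and none lower (against 16.4%). Col4a1 read 8.70, 8.66 and 8.44 in Ath+HF+BCAA 68w livers, 7.95, 8.15 and 8.15 in Ath+HF 68w livers, 8.03, 7.91 and 8.01 in Ath+HF+BCAA 38w livers, 8.05, 8.13 and 8.06 in Ath+HF 38w livers and 7.89, 7.67 and 7.76 in basal diet livers. Arrays of Ath+HF+BCAA 68w were all above the rest, and the difference from Ath+HF 68w was 0.51 ± 0.10 (SE), 1.43-fold (adjusted p = 0.000707). Col4a2 read 8.43, 8.24 and 8.25 in Ath+HF+BCAA 68w livers, 7.66, 7.75 and 7.70 in Ath+HF 68w livers, 7.93, 7.59 and 7.99 in Ath+HF+BCAA 38w livers, 7.80, 7.98 and 8.07 in Ath+HF 38w livers and 7.63, 7.47 and 7.73 in basal diet livers. The partner chain likewise had no overlap with any other group, with a difference of 0.60 ± 0.12 (SE), 1.52-fold (adjusted p = 0.000788). The chains of more restricted basement membranes differed less. Col4a3 and Col4a5 had differences of 0.24 ± 0.11 and 0.14 ± 0.11 (SE), and neither was called. Col4a6 read 6.83, 6.96 and 6.73 in Ath+HF+BCAA 68w livers, 6.80, 6.87 and 6.92 in Ath+HF 68w livers, 6.64, 6.35 and 6.68 in Ath+HF+BCAA 38w livers, 6.46, 6.68 and 6.36 in Ath+HF 38w livers and 6.68, 6.78 and 6.31 in basal diet livers. Both 68w groups of this chain overlapped, and the difference was -0.02 ± 0.13 (SE).

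Among the 9 FACIT chains, Col14a1 and Col12a1, which bind the surface of type I fibrils, were called higher (22.2%, against 19.8% of all genes). Called lower were Col19a1 and Col22a1 (22.2%, against 16.4% of all genes). Col14a1 read 10.36, 10.45 and 10.28 in Ath+HF+BCAA 68w livers, 9.06, 9.10 and 8.97 in Ath+HF 68w livers, 9.88, 9.73 and 10.29 in Ath+HF+BCAA 38w livers, 10.17, 10.10 and 9.77 in Ath+HF 38w livers and 9.51, 9.40 and 9.27 in basal diet livers. The Ath+HF 68w arrays were the lowest of all 15, below basal diet, and the Ath+HF+BCAA 68w arrays were the highest but for 1 Ath+HF+BCAA 38w array at 10.29. The difference at 68w was 1.32 ± 0.14 (SE), 2.49-fold (adjusted p = 1.99e-06). Col12a1 read 7.29, 7.04 and 7.06 in Ath+HF+BCAA 68w livers, 6.44, 6.77 and 6.57 in Ath+HF 68w livers, 6.75, 6.48 and 6.97 in Ath+HF+BCAA 38w livers, 6.77, 6.83 and 6.80 in Ath+HF 38w livers and 6.90, 6.43 and 7.22 in basal diet livers. At 68w the groups did not overlap (0.54 ± 0.17, SE, adjusted p = 0.0204), but basal diet arrays spread from 6.43 to 7.22 across both. This was the least firm of the 13 calls: it was lost on leaving out replicate 1 or 3 of Ath+HF 68w (adjusted p = 0.0746 and 0.0543) or replicate 1 of Ath+HF+BCAA 68w (0.0827).

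The remaining FACIT chains are best known from cartilage, muscle and other tissues. Col19a1 read 6.50, 6.53 and 6.50 in Ath+HF+BCAA 68w livers, 6.77, 6.86 and 6.78 in Ath+HF 68w livers, 6.57, 6.46 and 6.56 in Ath+HF+BCAA 38w livers, 6.39, 6.75 and 6.51 in Ath+HF 38w livers and 6.47, 6.49 and 6.65 in basal diet livers. Its Ath+HF 68w arrays were above every other array, and Ath+HF+BCAA 68w stayed among the 38w arrays (-0.29 ± 0.10, SE, adjusted p = 0.0288). Col22a1 read 7.50, 7.41 and 7.39 in Ath+HF+BCAA 68w livers, 7.58, 7.86 and 7.70 in Ath+HF 68w livers, 7.21, 7.38 and 7.04 in Ath+HF+BCAA 38w livers, 7.42, 7.53 and 7.40 in Ath+HF 38w livers and 7.48, 7.55 and 7.35 in basal diet livers. This chain of tissue junctions had the same order at 68w (-0.28 ± 0.10, SE, adjusted p = 0.0488). Each of these 2 calls was lost without any 1 of 5 of the 6 arrays compared, with adjusted p between 0.0539 and 0.0936 for Col19a1 (kept without Ath+HF 68w replicate 1) and between 0.0646 and 0.190 for Col22a1 (likewise kept without it). Quantile normalization also ended the Col19a1 call (adjusted p = 0.121), and equal array medians that of Col22a1 (0.0537). Col9a2 read 8.03, 7.97 and 7.68 in Ath+HF+BCAA 68w livers, 7.99, 8.12 and 8.18 in Ath+HF 68w livers, 7.46, 7.60 and 7.41 in Ath+HF+BCAA 38w livers, 7.58, 7.66 and 7.64 in Ath+HF 38w livers and 7.57, 7.71 and 7.70 in basal diet livers. Col9a3 read 8.21, 8.02 and 8.02 in Ath+HF+BCAA 68w livers, 8.19, 8.30 and 8.39 in Ath+HF 68w livers, 7.99, 7.77 and 7.81 in Ath+HF+BCAA 38w livers, 7.79, 7.94 and 7.83 in Ath+HF 38w livers and 7.81, 7.91 and 7.86 in basal diet livers. Col20a1 read 7.75, 7.59 and 7.58 in Ath+HF+BCAA 68w livers, 7.83, 7.67 and 8.02 in Ath+HF 68w livers, 7.05, 7.16 and 7.28 in Ath+HF+BCAA 38w livers, 7.18, 7.36 and 7.39 in Ath+HF 38w livers and 7.19, 7.12 and 7.17 in basal diet livers. In these 3, among them 2 chains of cartilage type IX collagen, both 68w groups were above all 38w arrays but for 1 Ath+HF+BCAA 68w array of Col9a2 at 7.68, and the BCAA difference at 68w was not called (-0.20 ± 0.10, -0.21 ± 0.09 and -0.20 ± 0.10, SE); quantile normalization called all 3 lower.

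Type VI collagen, whose chains join into beaded filaments around cells, held the chain with the largest difference of all 44. Col6a3 read 9.67, 9.39 and 9.36 in Ath+HF+BCAA 68w livers, 7.63, 7.71 and 7.82 in Ath+HF 68w livers, 8.04, 7.61 and 8.31 in Ath+HF+BCAA 38w livers, 7.96, 8.23 and 8.11 in Ath+HF 38w livers and 7.13, 7.38 and 7.47 in basal diet livers. The lowest Ath+HF+BCAA 68w array, at 9.36, was far above the highest array of another group, at 8.31, and the difference from Ath+HF 68w was 1.75 ± 0.15 (SE), 3.37-fold (adjusted p = 3.6e-07). Col6a1 read 8.49, 8.43 and 8.39 in Ath+HF+BCAA 68w livers, 7.78, 7.76 and 7.79 in Ath+HF 68w livers, 8.07, 7.94 and 8.14 in Ath+HF+BCAA 38w livers, 7.96, 8.35 and 8.11 in Ath+HF 38w livers and 7.77, 7.97 and 7.68 in basal diet livers. Col6a2 read 8.34, 8.39 and 8.31 in Ath+HF+BCAA 68w livers, 7.79, 7.72 and 7.93 in Ath+HF 68w livers, 7.67, 7.76 and 7.84 in Ath+HF+BCAA 38w livers, 7.76, 8.02 and 7.97 in Ath+HF 38w livers and 7.72, 7.58 and 7.59 in basal diet livers. In both partners Ath+HF+BCAA 68w was above every other array, with smaller differences of 0.66 ± 0.11 and 0.54 ± 0.10 (SE, adjusted p = 0.000174 and 0.000404). The alternative chains did not share this. Col6a6 read 8.35, 8.26 and 8.15 in Ath+HF+BCAA 68w livers, 8.12, 8.36 and 8.30 in Ath+HF 68w livers, 7.72, 7.88 and 7.68 in Ath+HF+BCAA 38w livers, 7.82, 7.89 and 7.96 in Ath+HF 38w livers and 7.57, 7.56 and 7.66 in basal diet livers. Its 68w groups overlapped (-0.01 ± 0.10, SE), and Col6a4 and Col6a5 had differences of -0.26 ± 0.11 and -0.12 ± 0.13 (SE), neither called.

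Other network and vessel wall chains split. Col8a1 and Col8a2 are chains of type VIII collagen, a network collagen of vessel walls. Col8a1 read 8.09, 7.63 and 7.79 in Ath+HF+BCAA 68w livers, 6.98, 6.92 and 6.88 in Ath+HF 68w livers, 7.21, 7.03 and 7.49 in Ath+HF+BCAA 38w livers, 7.19, 7.12 and 7.57 in Ath+HF 38w livers and 5.92, 6.81 and 6.79 in basal diet livers. No array of another group reached Ath+HF+BCAA 68w (0.91 ± 0.21, SE, 1.88-fold, adjusted p = 0.00267), and 1 basal diet array, at 5.92, stood below the other two of its group. Col8a2 read 6.76, 6.67 and 6.70 in Ath+HF+BCAA 68w livers, 6.94, 7.13 and 7.12 in Ath+HF 68w livers, 6.67, 6.46 and 6.67 in Ath+HF+BCAA 38w livers, 6.75, 6.42 and 6.86 in Ath+HF 38w livers and 6.75, 6.81 and 6.81 in basal diet livers. Its Ath+HF 68w arrays were above all others, so the partner ran the other way (-0.36 ± 0.11, SE, adjusted p = 0.0209), a call lost without Ath+HF 68w replicate 2 or 3 or Ath+HF+BCAA 68w replicate 2 or 3 (adjusted p = 0.0733, 0.0680, 0.0697 and 0.0539). Types XV and XVIII are the multiplexins, proteoglycan collagens of basement membrane zones. Col15a1 read 8.84, 8.79 and 8.68 in Ath+HF+BCAA 68w livers, 7.63, 7.77 and 7.86 in Ath+HF 68w livers, 7.66, 7.77 and 7.57 in Ath+HF+BCAA 38w livers, 7.67, 7.73 and 7.87 in Ath+HF 38w livers and 7.56, 7.68 and 7.66 in basal diet livers. In the other 4 groups the means of this chain lay between 7.63 and 7.76, and Ath+HF+BCAA 68w alone stood apart (1.02 ± 0.10, SE, 2.03-fold, adjusted p = 7.29e-07). Col18a1 read 10.09, 9.94 and 10.10 in Ath+HF+BCAA 68w livers, 10.29, 10.24 and 10.33 in Ath+HF 68w livers, 10.08, 10.07 and 9.92 in Ath+HF+BCAA 38w livers, 9.98, 10.11 and 10.08 in Ath+HF 38w livers and 9.98, 10.12 and 10.03 in basal diet livers. For Col18a1, which hepatocytes make and from which endostatin is cut, Ath+HF 68w was the group apart (-0.25 ± 0.09, SE, adjusted p = 0.0396). The Col18a1 call was lost under both rescalings (adjusted p = 0.0601 and 0.0546), with the replicate block (0.0571) and without any 1 of the 6 arrays compared (0.0505 to 0.163).

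The last of the chains called lower are known from other tissues, Col10a1 from growth plate cartilage and Col25a1, a membrane-spanning chain, from neurons. Col10a1 read 6.32, 6.19 and 6.21 in Ath+HF+BCAA 68w livers, 6.53, 6.54 and 6.61 in Ath+HF 68w livers, 5.90, 6.14 and 5.59 in Ath+HF+BCAA 38w livers, 5.84, 6.13 and 5.94 in Ath+HF 38w livers and 6.09, 6.17 and 6.16 in basal diet livers. Col25a1 read 7.26, 7.17 and 7.16 in Ath+HF+BCAA 68w livers, 7.25, 7.80 and 7.61 in Ath+HF 68w livers, 7.20, 7.14 and 7.04 in Ath+HF+BCAA 38w livers, 7.18, 7.08 and 6.87 in Ath+HF 38w livers and 6.94, 7.08 and 6.89 in basal diet livers. In Col10a1 the 68w groups did not overlap, and in Col25a1 they did, 1 Ath+HF 68w array reading 7.25. Differences were -0.32 ± 0.12 (SE, adjusted p = 0.0473), lost without any 1 of the 6 arrays compared (adjusted p = 0.0614 to 0.132), and -0.35 ± 0.13 (SE, adjusted p = 0.0383), lost without any 1 of 5 of them (0.0591 to 0.185). The Col10a1 call was also lost with equal array medians (adjusted p = 0.0535), after quantile normalization (0.203), with the replicate block (0.0503) and with the robust trend (0.0604). The count of chains called lower was 4 without Ath+HF 68w replicate 1, 1 without replicate 2 and 0 without replicate 3. The shares of all genes called lower were then 14.4%, 12.6% and 12%. That count was 2, 0 and 0 without Ath+HF+BCAA 68w replicates 1, 2 and 3 (against 12%, 10.1% and 13.1% of all genes). The count called higher was 12 or 13 in each of these 6 fits (against 16.6% to 18.5% of all genes).

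**Figure D3:**
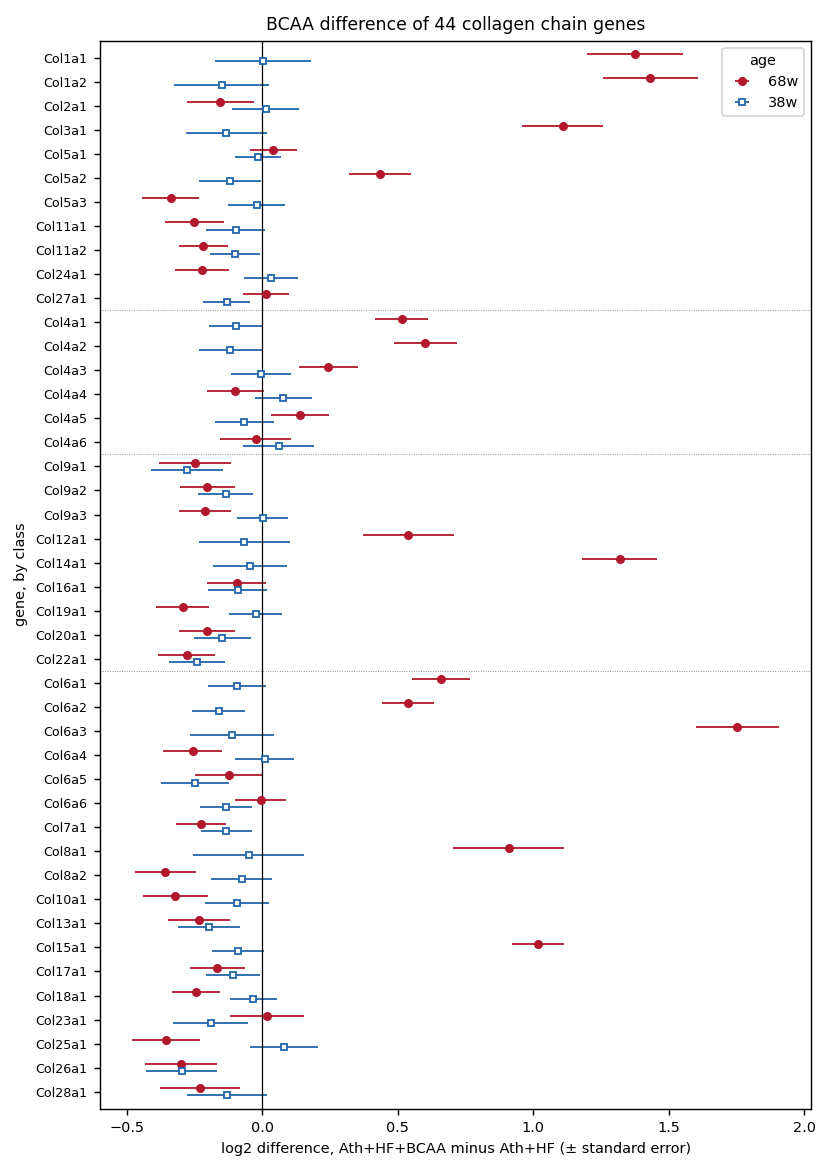
Log2 difference between Ath+HF+BCAA and Ath+HF livers, with its standard error, for each of the 44 chains at 68w (filled circles) and at 38w (open squares). At 68w 13 chains were called higher, Col6a3 by 1.75, and 7 lower, by 0.25 to 0.36 (each rescaling kept 4 of these 7 calls); at 38w no chain was called.

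At 38w no BCAA difference was called. None of the 44 chains differed between Ath+HF+BCAA 38w and Ath+HF 38w livers by limma, as none of the 19938 genes did (0% higher and 0% lower), nor did any chain by analysis of variance with Bonferroni's method. At an unadjusted p under 0.05 there were 2 of 44 chains and 1528 of all genes. The 44 differences ran from -0.30 to 0.08, with a median of -0.10 beside -0.01 for all genes. For the 13 chains called higher at 68w they ran from -0.16 to 0.00. The change of the BCAA difference between ages was then tested itself. For 12 of 44 chains the BCAA difference was larger at 68w than at 38w (27.3%, against 12.9% of all genes). For 0 it was smaller (against 7.67% of all genes). An unadjusted limma p under 0.05, in either direction, was found for 15 of 44 chains and 6614 of all 19938 genes. These 12 were the 13 of 68w without Col12a1, and 10 of them kept the call in all 20 alternatives run for this test. Col8a1 lost it without replicate 1 of Ath+HF+BCAA 68w, 2 or 3 of Ath+HF 68w, 1 or 2 of Ath+HF+BCAA 38w or 3 of Ath+HF 38w (adjusted p up to 0.0774), and Col5a2 without replicate 1 of Ath+HF+BCAA 68w, 1 or 2 of Ath+HF 68w, 1 of Ath+HF+BCAA 38w or 3 of Ath+HF 38w (up to 0.0683). Changes ran from 0.55 ± 0.16 (SE, adjusted p = 0.0238) for Col5a2 to 1.86 ± 0.22 (SE, adjusted p = 2.07e-05) for Col6a3. The comparisons share the 68w arrays, and all 7 chains called lower at 68w failed this test.

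A diet effect without BCAA could be read at a single age in Ath+HF 38w against basal diet. Of the 44 chains 6 were higher in Ath+HF 38w livers (13.6%, against 3.05% of all genes) and 0 lower (against 1.18%). An unadjusted limma p under 0.05, in either direction, was found for 14 of 44 chains and 3504 of all 19938 genes. The 6 called chains were Col1a2 (1.87-fold), Col1a1 (1.75-fold), Col8a1 (1.73-fold), Col6a3 (1.71-fold), Col3a1 (1.60-fold) and Col14a1 (1.53-fold). Their limma adjusted p lay between 0.00764 and 0.0416, with no overlap of arrays. All 6 are among the 13 chains above. Of the other 7, Col15a1 differed by 0.12 ± 0.10, Col4a1 by 0.31 ± 0.10 and Col12a1 by -0.05 ± 0.17 (SE), not called. The median of the 44 chains was 0.08, beside 0.00 for all genes. The count called higher was 2 without Ath+HF 38w replicate 2 (against 1.54% of all genes) and 3 without basal diet replicate 3 (against 2.04%). It was 3 after quantile normalization (against 2.07%), which kept Col1a2, Col6a3 and Col14a1. The basal diet arrays without replicate 1, whose Col8a1 was low, left Col8a1 at a limma adjusted p of 0.128.

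With BCAA in the diet the same 6 chains were called at 38w. In Ath+HF+BCAA 38w livers 6 of 44 were higher than in basal diet livers (13.6%, against 3.67% of all genes) and 0 lower (against 1.82%). An unadjusted limma p under 0.05, in either direction, was found for 10 of 44 chains and 3979 of all 19938 genes. Folds were 1.75 for Col1a1, 1.69 for Col1a2, 1.67 for Col8a1, 1.59 for Col6a3, 1.49 for Col14a1 and 1.46 for Col3a1, with adjusted p between 0.0142 and 0.0487. Both comparisons share the basal diet arrays. Replicate 2 of Ath+HF+BCAA 38w had the lowest values of its group for all 6, for example 7.61 beside 8.04 and 8.31 for Col6a3. Leaving out replicate 3 of Ath+HF+BCAA 38w gave 0 higher calls (against 2.37% of all genes) and leaving out its replicate 1 gave 1 (against 1.95%). Basal diet without replicate 1, 2 or 3 gave 2, 3 and 3 (against 2.9%, 2.73% and 2.5%), and quantile normalization gave 2 (against 2.94%).

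Both 68w groups were set against basal diet, with and without BCAA. In Ath+HF+BCAA 68w livers 25 of 44 were higher than in basal diet livers (56.8%, against 22.9% of all genes) and 0 lower (against 21.8%). An unadjusted limma p under 0.05, in either direction, was found for 28 of 44 chains and 10268 of all 19938 genes. The largest differences were those of Col6a3 at 2.15 ± 0.15 (SE, 4.44-fold, adjusted p = 4.83e-08), Col1a1 at 1.82 ± 0.18 (3.54-fold), Col1a2 at 1.71 ± 0.18 (3.26-fold), Col8a1 at 1.33 ± 0.21 (2.51-fold) and Col3a1 at 1.32 ± 0.15 (2.49-fold). Of the 13 chains with a higher level than in Ath+HF 68w livers, all but Col12a1 (0.28 ± 0.17, SE) were called here too, and the pair of comparisons shares the Ath+HF+BCAA 68w arrays. Without Ath+HF+BCAA 68w replicate 1 the count called higher was 15 (against 19.5% of all genes).

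In Ath+HF 68w livers 22 of 44 were higher than in basal diet livers (50%, against 19.0% of all genes) and 0 lower (against 19.1%). An unadjusted limma p under 0.05, in either direction, was found for 32 of 44 chains and 9588 of all 19938 genes. The 22 ran from 0.24 for Col18a1 to 0.68 for Col20a1 (1.61-fold, adjusted p = 0.000204), and Col6a6 (0.66 ± 0.10, SE), Col26a1 (0.66 ± 0.13) and Col28a1 (0.62 ± 0.15) followed. Col11a2 read 7.81, 7.68 and 7.78 in Ath+HF+BCAA 68w livers, 7.91, 8.06 and 7.96 in Ath+HF 68w livers, 7.51, 7.45 and 7.43 in Ath+HF+BCAA 38w livers, 7.61, 7.61 and 7.47 in Ath+HF 38w livers and 7.35, 7.45 and 7.61 in basal diet livers. For this type XI chain of cartilage, Ath+HF 68w was above all other arrays (0.51 ± 0.09, SE, adjusted p = 0.000677). Col17a1 read 7.15, 7.02 and 7.01 in Ath+HF+BCAA 68w livers, 7.20, 7.23 and 7.24 in Ath+HF 68w livers, 6.69, 6.86 and 6.71 in Ath+HF+BCAA 38w livers, 6.87, 6.95 and 6.78 in Ath+HF 38w livers and 6.58, 6.93 and 6.85 in basal diet livers. The hemidesmosome chain Col17a1 showed the same order (0.44 ± 0.10, SE, adjusted p = 0.00332). Col24a1 read 7.06, 6.95 and 6.84 in Ath+HF+BCAA 68w livers, 7.19, 7.16 and 7.18 in Ath+HF 68w livers, 6.80, 6.95 and 6.73 in Ath+HF+BCAA 38w livers, 6.93, 6.75 and 6.68 in Ath+HF 38w livers and 7.03, 6.89 and 6.79 in basal diet livers. Col27a1 read 8.49, 8.30 and 8.37 in Ath+HF+BCAA 68w livers, 8.35, 8.36 and 8.41 in Ath+HF 68w livers, 7.90, 7.99 and 7.98 in Ath+HF+BCAA 38w livers, 7.98, 8.15 and 8.12 in Ath+HF 38w livers and 8.05, 8.13 and 8.15 in basal diet livers. These minor fibrillar chains differed by 0.27 ± 0.10 and 0.27 ± 0.09 (SE, adjusted p = 0.0457 and 0.0233), and Col27a1 was as high in Ath+HF+BCAA 68w livers. The chains of scar were not called: Col1a1 differed by 0.45 ± 0.18, Col1a2 by 0.27 ± 0.18, Col3a1 by 0.21 ± 0.15 and Col14a1 by -0.35 ± 0.14 (SE). Of the 44 chains, 12 were called above basal diet in both 68w groups (27.3%, against 8.50% of all genes), 13 in Ath+HF+BCAA 68w alone (29.5%, against 14.4%) and 10 in Ath+HF 68w alone (22.7%, against 10.5%), with the basal diet arrays shared. Without Ath+HF 68w replicate 2 the count of 22 was 13 (against 13.9% of all genes), and without replicate 3 it was 14 (against 13.1%).

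The scaling of the arrays moved these small differences. For Ath+HF 68w against basal diet, the median over all genes was 0.05 as deposited and -0.14 once array medians were set equal, which left 7 of the 44 chains called higher (against 5.97% of all genes) and 2 lower (Col12a1 and Col14a1, against 30.8% of all genes). Quantile normalization left 12 higher (against 11.1% of all genes) and 1 lower (Col12a1, against 20% of all genes). The 7 called higher under all 3 scalings were Col11a2, Col20a1, Col6a6, Col7a1, Col25a1, Col26a1 and Col28a1, and 37 of 44 differences stayed above 0 with equal medians, beside 41 as deposited. Relative to the median of all genes, the median chain was 0.28 against 0.05 as deposited and 0.09 against -0.14 with equal medians. For Ath+HF+BCAA 68w against basal diet, where the median over all genes was 0.01 as deposited and -0.18 with equal medians, 15 chains stayed higher (against 13.9% of all genes) and Col5a3 was called lower (against 35.4% of all genes). Between the lower quartile and the median of mean level, 30.5% of all genes were higher in Ath+HF 68w than in basal diet livers, beside 8 of 17 chains there (47.1%). Between the median and the upper quartile 18.2% of all genes were, beside 12 of 24 chains (50%), and above the upper quartile 14.1% of all genes were.

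**Figure D4:**
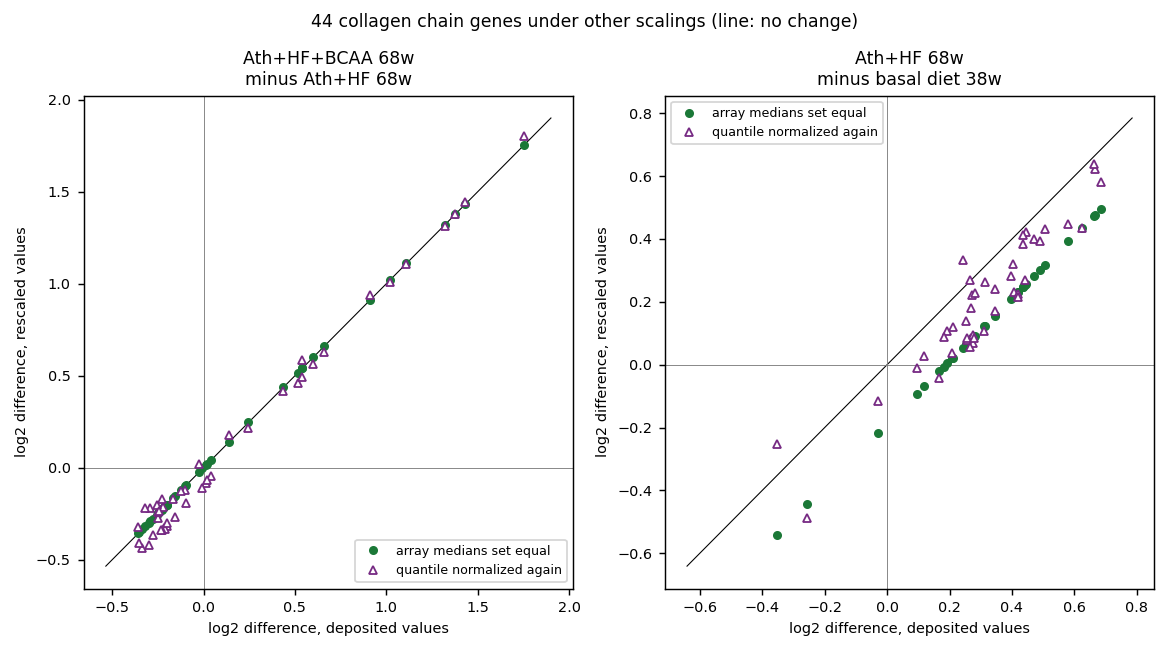
Log2 difference of each of the 44 chains after the arrays were rescaled (vertical axis), by median (circles) or quantiles (triangles), against that of the deposited values (horizontal axis), for Ath+HF+BCAA 68w minus Ath+HF 68w (left) and Ath+HF 68w minus basal diet 38w (right). On the left the medians-equal points follow the line of no change, on the right all of them lie below it, with 22 chains called higher as deposited, 7 with equal medians and 12 after quantile normalization.

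Between 38w and 68w the scar chains Col1a2 and Col3a1 were called lower without BCAA and higher with it. In these comparisons age, time on the diet and any batch cannot be told apart. In Ath+HF 68w livers 17 of 44 chains were higher than in Ath+HF 38w livers (38.6%, against 17.6% of all genes) and 4 lower (9.09%, against 20.0% of all genes). The 4 were Col14a1 (-0.97 ± 0.14, SE, adjusted p = 9.9e-05), Col1a2 (-0.63 ± 0.18, adjusted p = 0.0113), Col3a1 (-0.47 ± 0.15, adjusted p = 0.0216) and Col6a1 (-0.36 ± 0.11, adjusted p = 0.0159), and none of them overlapped between ages. Rises were led by Col10a1 (0.59 ± 0.12, SE, adjusted p = 0.00150) and Col20a1 (0.53 ± 0.10, adjusted p = 0.00121), and all 17 were under 0.60. Col10a1 was the dimmest of the 44 chains, with a mean level of 6.16 over all arrays. Below the median of mean level were 7 more of the 17. With array medians set equal, the median over all genes was -0.06 (0.05 as deposited), and 7 were higher (against 8.31% of all genes) and 7 lower (against 26.3%), among the lower ones the same 4 with Col1a1, Col4a2 and Col6a3. Leaving out replicate 2 of Ath+HF 38w ended the lower calls of Col3a1 and Col6a1 (adjusted p = 0.105 and 0.0792), and leaving out replicate 3 of Ath+HF 68w that of Col3a1 (0.0676). The 17 rises were 10 without replicate 1 of Ath+HF 38w (against 12.3% of all genes) and 11 without replicate 2 of Ath+HF 68w (against 12.1%).

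With BCAA, 27 of 44 chains were higher at 68w than at 38w (61.4%, against 20.5% of all genes) and 0 lower (against 18.3%). An unadjusted limma p under 0.05, in either direction, was found for 33 of 44 chains and 9450 of all 19938 genes. Col6a3 rose by 1.48 ± 0.15 (SE, 2.80-fold, adjusted p = 4.18e-06), Col15a1 by 1.10 ± 0.10 (2.15-fold, 8.74e-07), Col1a1 by 1.01 ± 0.18 (2.02-fold, 0.000380), Col1a2 by 0.95 ± 0.18 (1.93-fold, 0.000599) and Col3a1 by 0.77 ± 0.15 (1.71-fold, 0.000789). Col14a1 rose less, by 0.40 ± 0.14 (SE, adjusted p = 0.0322), with 1 array of each age overlapping. Of the chains called, 10 were higher at 68w both with and without BCAA (22.7%, against 6.16% of all genes), 17 with BCAA alone (38.6%, against 14.3%) and 7 without BCAA alone (15.9%, against 11.5%). With array medians set equal, the median over all genes was -0.12 (0.03 as deposited). There 12 chains were called higher (against 11.4% of all genes), Col14a1 and Col8a1 no longer among them. Without Ath+HF+BCAA 68w replicate 1 the count of 27 was 16 (against 15.7% of all genes).

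Genes that make, process or bind collagen, from lists chosen with earlier results of these data known, moved in part with the chains. Of 31 listed biosynthesis genes 29 were measured, and in Ath+HF+BCAA 68w livers 10 were higher and 3 lower than in Ath+HF 68w livers (against 19.8% and 16.4% of all genes), with a median of 0.10 beside -0.09 for all genes. Sparc, a collagen-binding matrix protein, averaged 11.99 in Ath+HF+BCAA 68w livers and 10.23 in Ath+HF 68w livers (3.40-fold, limma adjusted p = 3.84e-07). P3h2, a prolyl 3-hydroxylase of collagen, averaged 8.55 in Ath+HF+BCAA 68w livers and 7.24 in Ath+HF 68w livers (2.47-fold, adjusted p = 1.12e-06), and Pcolce, which speeds the trimming of procollagen, 9.38 in Ath+HF+BCAA 68w livers and 8.13 in Ath+HF 68w livers (2.39-fold, adjusted p = 9.8e-07). Between ages without BCAA 3 of the 29 were higher and 11 lower at 68w (against 17.6% and 20.0% of all genes), led by Pcolce2 (-1.14 ± 0.17, SE, adjusted p = 0.000176), P3h2 (-0.72 ± 0.13, adjusted p = 0.000607) and Tmem38b, an endoplasmic reticulum channel needed for collagen synthesis (-0.70 ± 0.13, adjusted p = 0.000732). In Ath+HF 38w livers 2 were higher than in basal diet livers (against 3.05% of all genes), Sparc (1.62-fold, adjusted p = 0.0186) and P3h2 (1.40-fold, 0.0438).

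Of the 12 listed receptors 11 were measured. In Ath+HF+BCAA 68w livers 8 were higher than in Ath+HF 68w livers and 0 lower (against 19.8% and 16.4% of all genes), with a median of 0.67. Cd44, a hyaluronan receptor that also binds collagen, averaged 9.35 in Ath+HF+BCAA 68w livers and 7.19 in Ath+HF 68w livers (4.45-fold, adjusted p = 6.85e-09). Lair1, an inhibitory collagen receptor of immune cells, differed 3.57-fold (adjusted p = 1.33e-07), and Ddr1, a receptor tyrosine kinase for collagen, 2.49-fold (adjusted p = 1.86e-06). At 68w without BCAA 0 receptors were higher than at 38w and 5 were lower (against 17.6% and 20.0% of all genes), among them the integrin subunits Itga1 (-1.19 ± 0.11, SE, adjusted p = 3.02e-06) and Itgb1 (-0.87 ± 0.11, adjusted p = 3.02e-05). In Ath+HF 38w livers Cd44 (2.06-fold, adjusted p = 0.000254) and Lair1 (1.60-fold, 0.0155) were the 2 receptors above basal diet (against 3.05% of all genes).

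Markers of other liver cell types moved with the 68w BCAA difference, and their part in it was not tested. In that comparison 19.8% of all genes were higher and 16.4% lower. Macrophage markers were higher in 7 of 10 and lower in 1, and their summed linear signal was 15850 to 20590 in Ath+HF+BCAA 68w livers and 3918 to 4362 in Ath+HF 68w livers, beside 6271 to 6698 in basal diet livers. Myofibroblast markers were higher in 7 of 10 and lower in 0, summing to 2982 to 3287 in Ath+HF+BCAA 68w livers and 1351 to 1497 in Ath+HF 68w livers, beside 1319 to 1507 in basal diet livers. Cholangiocyte markers, of which 7 of 10 were measured, were higher in 5 and lower in 0 (1688 to 1780 in Ath+HF+BCAA 68w livers and 907.7 to 1045 in Ath+HF 68w livers). Endothelial markers were higher in 6 and lower in 1 of 10 (8207 to 9152 in Ath+HF+BCAA 68w livers and 6612 to 7562 in Ath+HF 68w livers). Stellate cell markers were higher in 3 and lower in 3 of 10 (summing to 4771 to 4896 in Ath+HF+BCAA 68w livers and 5016 to 5599 in Ath+HF 68w livers). Their mean log2 level ran the other way from this sum, at 8.52 to 8.55 in Ath+HF+BCAA 68w livers and 8.35 to 8.50 in Ath+HF 68w livers. Hepatocyte markers were lower in 5 of 10 and higher in 0. In Ath+HF 38w livers macrophage markers were also above basal diet in 6 of 10 and below it in 1 (against 3.05% and 1.18% of all genes). They summed to 12290 to 15720 in Ath+HF 38w livers and 6271 to 6698 in basal diet livers. Myofibroblast markers were above basal diet in 3 of 10 and below it in 0. Between 38w and 68w without BCAA, 17.6% of all genes were higher and 20.0% lower at 68w. Macrophage markers were higher in 1 and lower in 8 of 10, and endothelial ones higher in 0 and lower in 5. Myofibroblast ones were higher in 1 and lower in 3. Between the same ages with BCAA, 20.5% of all genes were higher and 18.3% lower at 68w. Macrophage and myofibroblast markers were each higher in 5 of 10 and lower in 0, and cholangiocyte ones higher in 6 of 7. Their part in the age differences of the chains was not tested.

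**Figure D5:**
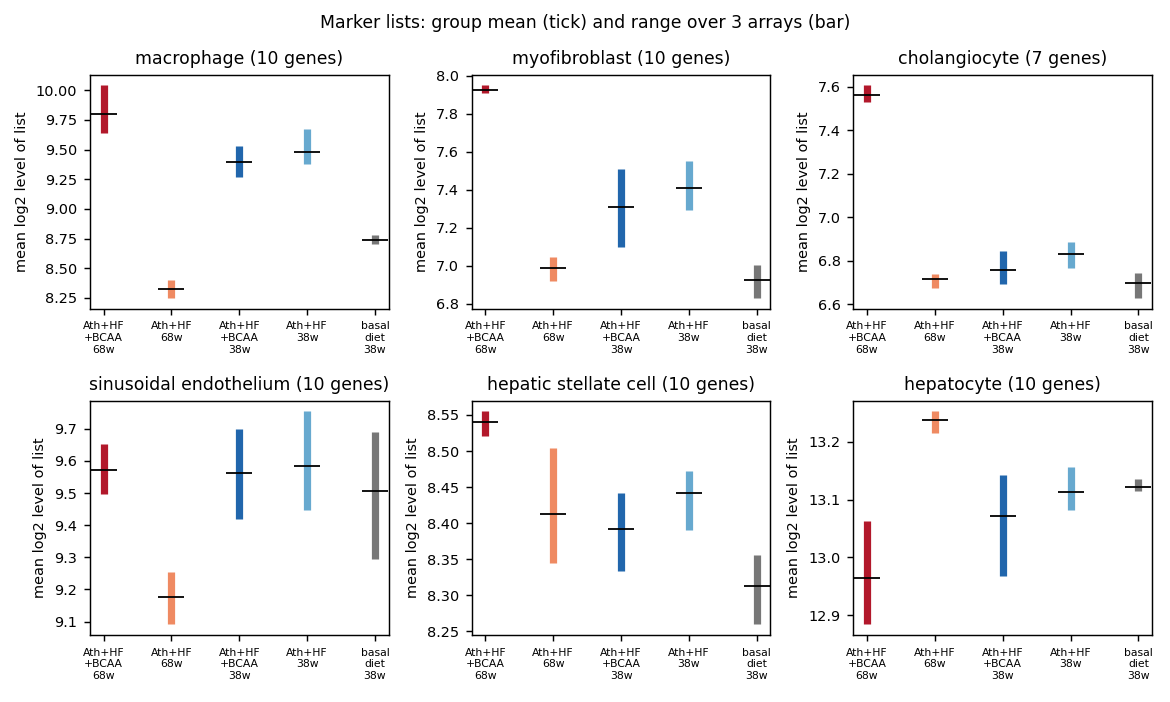
Mean log2 level of 6 lists of cell type markers (panels, each with its own axis) by diet and age, with the group mean (tick) and the range over 3 arrays (bar). Macrophage, myofibroblast, cholangiocyte and stellate cell lists are highest in Ath+HF+BCAA 68w livers, and the macrophage list is lowest in Ath+HF 68w livers, at 8.25 to 8.40.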

How the data were processed

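RNA from frozen livers of 15 arrays in 5 groups of 3 was measured on Affymetrix gene arrays. The deposited values are log2 signals that the authors obtained by robust multi-array averaging (RMA) in Affymetrix Expression Console, whose versions are not given in the sources used here. RMA corrects background, normalizes quantiles and summarizes probes, so part of any shift shared by most genes is removed. Signals carry no read depth, and 3 arrays a group limit the precision.

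Of 35556 transcript clusters, 21789 had 1 gene symbol, 1621 had several and 12146 were unnamed. Each of the 19938 genes was read from its brightest cluster, and all 44 collagen genes were found in the RefSeq table. Groups came from the array labels. All 15 arrays were fitted in 1 model with limma 3.58.1 (R 4.3.3; lmFit and eBayes, 10 residual degrees of freedom) without a replicate block, p-values were adjusted by Benjamini-Hochberg over all genes, and genes were called at 0.05. The fit was tested on simulated data. The study's general statistical method, analysis of variance with Bonferroni's method, was an alternative. The separate cut on fold and P that the study set for its array genes was not run. Others were the mean of a gene's clusters, no dim genes (mean below the lower quartile), equal array medians, renewed quantile normalization, a variance trend with robust fit, array weights, the replicate block, only the arrays compared, and leaving out each array.

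Chains given on every array were those the study measured by other means (Col1a1, Col1a2, Col4a1 and Col4a2), up to 4 per class with the smallest p among calls in Ath+HF+BCAA 68w against Ath+HF 68w, Ath+HF 68w against Ath+HF 38w, or Ath+HF 38w against basal diet, those called against their class, and the brightest and dimmest of each class. Of the biosynthesis and receptor lists, up to 3 called genes per such comparison were named. The members and lists were chosen with earlier results of these data known. Promoter windows came from RefSeq on GRCm38.p6.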

Additional observations from a re-analysis of the deposited data

Results flagged for a closer look

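The BCAA difference itself differed between ages, by the test of that difference in limma, for 12 of the 44 chains. It was larger at 68w than at 38w in each (27.3%, against 12.9% of all genes) and smaller in 0 (against 7.67%). Between the lower quartile and the median of mean level, 2 of 17 chains were called larger (11.8%, against 11.6% of all genes). Between the median and the upper quartile 9 of 24 were (37.5%, against 22.3%), and above it 1 of 2 (50%, against 15.7%). The difference at 68w minus that at 38w was 1.86 for Col6a3 (log2 scale; 1.75 at 68w and -0.11 at 38w), 1.58 for Col1a2 (1.43 and -0.15), 1.37 for Col1a1 (1.38 and 0.00), 1.36 for Col14a1 (1.32 and -0.05) and 1.24 for Col3a1 (1.11 and -0.13). It was 1.11 for Col15a1 (1.02 and -0.09), 0.96 for Col8a1 (0.91 and -0.05), 0.75 for Col6a1 (0.66 and -0.09), 0.72 for Col4a2 (0.60 and -0.12), 0.70 for Col6a2 (0.54 and -0.16), 0.61 for Col4a1 (0.51 and -0.10) and 0.55 for Col5a2 (0.44 and -0.12). Limma adjusted p lay between 2.07e-05 (Col6a3) and 0.0285 (Col8a1). The test shares its 68w arrays with the comparison at 68w.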

How the results depend on the processing

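Counts are of the 44 chains, and the percentage after a count is the share of all genes called likewise. With array medians set equal, Ath+HF+BCAA 68w against basal diet gave 15 higher (13.9%) and 1 lower (35.4%). Ath+HF 68w against basal diet gave 7 higher (5.97%) and 2 lower (30.8%). Ath+HF 68w against Ath+HF 38w gave 7 higher (8.31%) and 7 lower (26.3%), and Ath+HF+BCAA 68w against Ath+HF+BCAA 38w 12 higher (11.4%). Lower calls for Ath+HF+BCAA 68w against Ath+HF 68w were then 4 (15.5%). After quantile normalization, higher calls against basal diet were 3 for Ath+HF 38w (2.07%) and 2 for Ath+HF+BCAA 38w (2.94%). They were 12 for Ath+HF 68w (11.1%) and 14 for Ath+HF+BCAA 68w (18.3%), with 1 lower in each (20% and 21.7%). Ath+HF+BCAA 68w against Ath+HF+BCAA 38w then gave 14 higher (15.8%), and Ath+HF+BCAA 68w against Ath+HF 68w 11 lower (14.7%). Analysis of variance with Bonferroni's method gave 3 lower calls (9.85%) for Ath+HF+BCAA 68w against Ath+HF 68w and 2 (14.7%) for Ath+HF 68w against Ath+HF 38w. With Benjamini-Hochberg on top, these were 0 (5.85%) and 1 (9.56%). Higher calls against basal diet were then 0 for Ath+HF 38w (0.0802%), 0 for Ath+HF+BCAA 38w (0.12%) and 7 for Ath+HF 68w (5.08%). They were 6 (4.47%) for Ath+HF 68w against Ath+HF 38w and 11 (9.03%) for Ath+HF+BCAA 68w against Ath+HF+BCAA 38w. Array weights gave 2 higher (2.45%) for Ath+HF+BCAA 38w against basal diet and 13 lower (26.8%) for Ath+HF+BCAA 68w against Ath+HF 68w. They also gave 1 smaller BCAA difference at 68w than at 38w (11.1%). With the compared arrays alone, Ath+HF+BCAA 38w against basal diet had 0 higher (1.31%) and Ath+HF 68w against Ath+HF 38w 7 lower (19.5%). Array weights, the robust trend, no dim genes and the compared arrays alone each gave 1 lower for Ath+HF 68w against basal diet (17.1% to 25.1%). The cause was not tested. Leaving out 1 array gave, against basal diet, 2 to 6 higher for Ath+HF 38w (1.54% to 2.48%) and 0 to 6 for Ath+HF+BCAA 38w (1.95% to 4.32%). It gave 13 to 21 higher (13.1% to 16.6%) and 0 or 1 lower (15.3% to 18%) for Ath+HF 68w, and 15 to 23 higher (19.4% to 21.5%) for Ath+HF+BCAA 68w. For Ath+HF+BCAA 68w against Ath+HF 68w it gave 12 to 13 higher (16.6% to 18.5%) and 0 to 4 lower (10.1% to 14.4%). For Ath+HF 68w against Ath+HF 38w it gave 10 to 18 higher (11.6% to 15.3%) and 2 to 4 lower (16.1% to 18.6%). For Ath+HF+BCAA 68w against Ath+HF+BCAA 38w it gave 16 to 24 higher (15.7% to 18.5%). For the change of the BCAA difference it gave 10 to 13 larger (10.4% to 12.8%) and 0 to 1 smaller (5.14% to 7.98%). The 1 smaller was without Ath+HF 68w replicate 1. Arrays with the same replicate number did not deviate together (30 pairs, correlations of -0.156 to 0.183, 3 over 0.1; 7 of 15 arrays correlated best with their own number). With the replicate block, higher calls against basal diet were 6 for Ath+HF 38w (2.84%) and 4 for Ath+HF+BCAA 38w (3.5%). They were 21 for Ath+HF 68w (18.7%) and 25 for Ath+HF+BCAA 68w (22.7%). Ath+HF+BCAA 68w against Ath+HF 68w gave 13 higher (19.5%) and 5 lower (16%), and Ath+HF 68w against Ath+HF 38w 19 higher (17.3%) and 4 lower (19.6%). Higher calls were 27 (20.2%) for Ath+HF+BCAA 68w against Ath+HF+BCAA 38w and 12 (12.6%) for the change of the BCAA difference. Over the 110 pairs of a named chain and a comparison that were called in the main fit, 1500 alternative values kept direction and call. Another 304 kept direction but not the call, and 0 reversed. Analysis of variance, the robust trend, no dim genes, the replicate block and the compared arrays alone leave the difference of group means unchanged. Direction could not reverse in those. The mean of a gene's clusters changes it only for Col6a6, the 1 named chain with 2 clusters. Where the arrays of the groups compared did not overlap, leaving out or weighting arrays could not reverse it either. The part of the 0 that comes from these cases is no test.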
